A study of Rattus norvegicus with 8 samples.

Results

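Rbbp7 and Rbbp4 are closely related histone-binding proteins that carry WD40 repeats. The results below concern Rbbp7 and 6 of its partners: Rbbp4, the histone deacetylases Hdac1 and Hdac2, the metastasis-associated protein Mta1, the methyl-CpG-binding domain protein Mbd3 and the scaffold protein Sin3a. The genes were chosen by name, and the set was chosen by the fall of Rbbp7, which was among the largest at 10 µM mono-(2-ethylhexyl) phthalate (MEHP). The 7 genes, of 35529 gene names on the array, were represented by 9 of its 41012 probes. The array's exact gene names gave 5 of these probes, and removing its mark for predicted genes, which Rbbp4, Hdac1, Mbd3 and Sin3a carried, gave all 9. Hdac2 had 3 probes, and each other gene had 1.

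Hdac1 and Hdac2 remove acetyl groups from histone tails. They work inside larger complexes, of which NuRD (with Mta and Mbd proteins and a chromatin remodeler) and Sin3 (built on Sin3a) are the best known. Rbbp7 and Rbbp4 bind histones in both complexes, and they also occur in the Polycomb complex PRC2 and in histone chaperones. The complexes are best known for repressing transcription.

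Testes were removed from fetuses of Sprague-Dawley rats in mid-gestation and cultured for 72 h with vehicle (DMSO), 1 µM MEHP or 10 µM MEHP. RNA from 1 testis at 1 µM and from 3 testes at 10 µM was hybridized to Agilent whole-genome rat arrays, each against RNA pooled from 3 testes cultured with vehicle. Each testis was hybridized on 2 arrays, called here the first and the repeat hybridization, which gave 8 arrays. The pool was the only control, so the spread among control testes was not measured, and values at both doses share it. The MEHP-treated testes came from different litters, although the description of litters does not separate the doses. The explants were whole organs that hold several cell types, so fewer cells of a type and less RNA per cell cannot be told apart.

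All ratios are log2 of MEHP over pooled vehicle, so that −1 is a 2-fold fall. The sample labels place MEHP on the green dye on every array, whereas the methods state that dyes were exchanged between the duplicates without naming the array. MEHP was read as green in the first and red in the repeat hybridizations, so each direction given here is likely rather than settled. The red over green ratio of Rbbp7 had opposite signs within all 4 pairs of arrays. Rbbp7 was chosen by its fall in ratios turned this way, so its signs at 10 µM do not bear on the reading of the dyes. Over the tested probes, the correlation of that ratio within a pair was −0.23, −0.53 and −0.40 for testes 1 to 3 at 10 µM, and 0.16 at 1 µM. The value at 1 µM was positive, so by this measure the directions at that dose are the less certain ones. At 1 µM this reading put Star at 1.83, Insl3 at −1.81 and Cyp17a1 at −1.10. The paper reports the same directions for these genes at that dose. Its other genes were not compared here.

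Testis 2 at 10 µM stood apart. In its MEHP channel, 0.232% and 1.51% of probes were well above background on its 2 arrays, against 7.71% to 29.2% on the other 6 arrays. A probe was tested at 10 µM if it was well above background in either channel on at least 3 of the 6 arrays, which left 9913 probes. Taken over these probes, testes 1, 2 and 3 had median ratios of 0.09, −1.13 and −0.20. The median of the mean ratio was −0.42 with all 3 testes and −0.04 without testis 2, so each value at 10 µM is given relative to 0 and, where it matters, without that testis. Centring each array on its median brought the median of all tested probes to 0.04. With all 3 testes, 185 probes were lower and 37 higher at an adjusted p under 0.05 in limma, and after centring 51 were lower and 55 higher.

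The tissue was checked against marker genes. The Sertoli cell genes Amh, Inhbb and Sox9 and the Leydig cell hormone gene Insl3 were well above background in the vehicle channel of all 8 arrays. Among the other Leydig markers, this held for Hsd3b1 on 7 arrays, Cyp17a1 on 6, Star on 4, Cyp11a1 on 2 and Nr5a1 on 0. Among the other Sertoli markers, it held for Dhh on 6, Gata4 on 4 and Fshr on 0. Of the germ cell genes, Ddx4 was well above background in the vehicle channel on 2 arrays, and Pou5f1, Kit and Nanos3 on 0. At 10 µM the median ratio was −1.54 over 4 tested Leydig markers (−1.43 without testis 2) and −1.22 over 5 tested Sertoli markers (−0.80 without testis 2). It was −0.71 over 2 peritubular markers and −0.15 over 2 macrophage markers, and −0.08 for the endothelial marker Kdr, and without testis 2 these became −0.33, 0.18 and 0.88. The summed signal of the Leydig markers ranged from 476 to 2003 in the MEHP channel and from 1255 to 7564 in the vehicle channel. For the Sertoli markers the ranges were 995 to 9952 and 2721 to 16422, and in testis 1 the sum was higher in MEHP than in vehicle on both arrays (9952 against 9807, and 7235 against 6719). Of the 9 Leydig and Sertoli markers tested, Cyp17a1, the steroidogenic enzyme with hydroxylase and lyase activity, passed the test, with a ratio of −1.96 ± 0.32 (SD, n = 3; limma adjusted p = 0.0394), a call that was lost under 12 of 19 alternatives. At 10 µM, Cyp17a1 was well above background on 5 arrays in vehicle and 2 in MEHP. It thus entered the test through the channel in which it was high, which limits the call. The part of these markers in the ratios of Rbbp7 and its partners was not tested.

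Upstream sequence is shown for Rbbp7, for its closest relative Rbbp4, and for Hdac2, whose ratio ran the other way in testes 1 and 3. Each stretch is the 250 bases before the annotated start, from RefSeq on GRCr8, written 5′ to 3′ on the strand of the gene. Capitals mark the GC box (GGGCGG) and the CCAAT box, each on either strand.
Rbbp7, chrX:35563031-35563280, minus strand: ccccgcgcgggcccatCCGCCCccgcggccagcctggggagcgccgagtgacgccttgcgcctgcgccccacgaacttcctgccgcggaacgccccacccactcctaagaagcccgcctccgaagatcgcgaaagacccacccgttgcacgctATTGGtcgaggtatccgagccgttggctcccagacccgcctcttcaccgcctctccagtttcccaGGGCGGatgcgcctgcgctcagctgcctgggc
Rbbp4, chr5:146959502-146959751, minus strand: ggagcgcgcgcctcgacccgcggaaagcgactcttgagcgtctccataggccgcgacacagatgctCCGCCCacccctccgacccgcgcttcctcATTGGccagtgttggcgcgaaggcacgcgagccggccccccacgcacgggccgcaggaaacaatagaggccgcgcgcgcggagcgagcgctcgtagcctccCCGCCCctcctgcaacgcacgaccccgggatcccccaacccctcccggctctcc
Hdac2, chr20:42102877-42103126, plus strand: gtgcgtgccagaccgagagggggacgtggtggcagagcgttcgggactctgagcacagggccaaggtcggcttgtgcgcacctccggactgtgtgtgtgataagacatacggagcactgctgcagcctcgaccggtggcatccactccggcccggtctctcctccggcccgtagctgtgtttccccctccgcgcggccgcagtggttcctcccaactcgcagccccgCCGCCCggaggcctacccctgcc
The sequences of all 7 genes were matched by symbol, and all 7 held a GC box, which 30.5% of 33469 promoters in the same table held. A CCAAT box was found in 5 of the 7, in all but Hdac2 and Mta1, against 34% of all promoters. G and C made up 70.8% of the bases for Rbbp7, 72.4% for Rbbp4 and 68.8% for Hdac2, against a median of 51.2% over all promoters. The letters AGGTCA, a core recognition sequence of many nuclear receptors including the PPARs, on which MEHP is known to act, were in 0 of the 7 windows on either strand and in 14.1% of all promoters. These are matches of letters and carry no information on binding.

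Rbbp7 was lower in MEHP than in vehicle on all 8 arrays. At 10 µM its ratios in the first and repeat hybridization were −2.65 and −1.95 in testis 1, −2.72 and −2.24 in testis 2, and −2.99 and −3.02 in testis 3. The mean over testes was −2.59 ± 0.37 (SD, n = 3), a 6.04-fold lower signal, and −2.65 without testis 2. At 1 µM the ratios were −1.04 and −1.60, with a mean of −1.32, a 2.50-fold lower signal in 1 testis. The highest array at 10 µM lay below both arrays at 1 µM. As Rbbp7 was chosen by its fall at 10 µM, these values are a description and were not tested.

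The signals behind the ratios of Rbbp7 differed in quality. The vehicle channel was well above background on all 6 arrays at 10 µM, with signals between 558 and 2961. The MEHP channel lay between 118 and 449 and was rose well above background on only 2 of them, the repeat hybridizations of testes 1 and 3. On both arrays of testis 2 the MEHP signal was a surrogate, a value set by the extraction software for a spot near background. At 1 µM the MEHP signals were 1089 and 664, the vehicle signals were 2236 and 2013, and both channels were well above background on both arrays. The probe was therefore measured in both channels on 4 of 8 arrays, both of those at 1 µM among them.

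**Figure D1:**
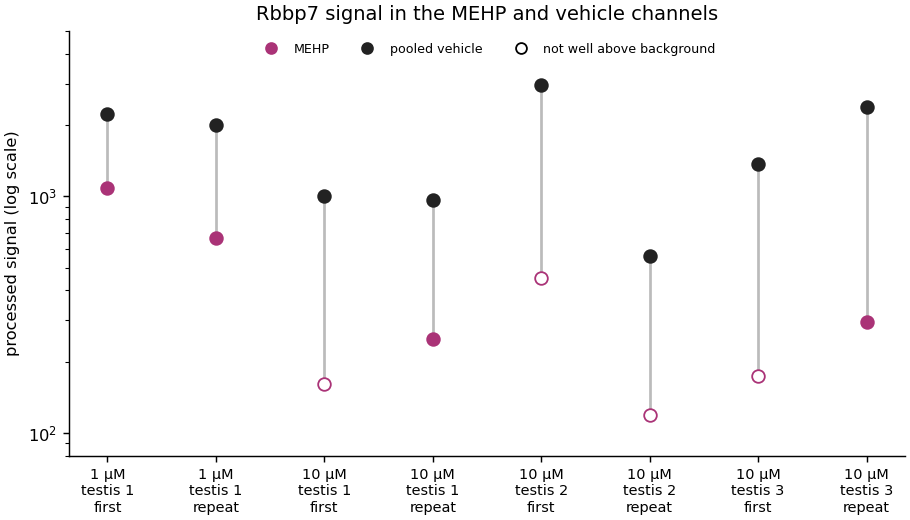
Processed signal of the Rbbp7 probe (log axis) in the MEHP and the pooled vehicle channel of each of the 8 arrays, with a line joining the channels of an array. The vehicle signal is the higher one on every array, and open circles mark 4 MEHP signals at 10 µM that were not well above background.

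Among the 9913 tested probes, Rbbp7 had the 6th lowest mean at 10 µM. Its neighbors in that order were Itm2a at −2.60 and Rack1 at −2.59. The rank restates the choice of Rbbp7 by its fall. At 10 µM, Rbbp7 was well above background on 6 arrays in vehicle and 2 in MEHP. It thus entered the tested probes through the channel in which it was high, which limits the rank. At 1 µM, 0.545% of the 13174 probes tested there had a mean as low or lower. There, a probe was called when both of its hybridizations moved 1.5-fold or more one way, which 390 probes (2.96%) did downward and 534 (4.05%) upward. Of the 8 member probes tested at 1 µM, Rbbp7 and Rbbp4 were called lower and 0 were called higher. With a single testis at 1 µM, the calls had no replicate check. On the slide that held both the 1 µM testis and testis 3, Rbbp7 was at −1.32 and −3.00.

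The size of the fall of Rbbp7 depended on the processing. When loess on the raw signals replaced the deposited ratio, the mean at 10 µM was −0.64 with normexp background correction and −0.63 without background subtraction, and at 1 µM it was −0.39 and −0.76. Reading the dyes as the labels give them on every array left −0.19 at 10 µM and turned the value at 1 µM to 0.28.

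Rbbp4, the paralog of Rbbp7, had the same sign in every testis. Its ratios in the first and repeat hybridization were −0.91 and 0.39 in testis 1, −1.62 and −0.45 in testis 2, and −2.44 and −2.02 in testis 3. The 2 arrays of testis 1 lay on opposite sides of 0, and the other 4 arrays were all below it. On 3 of those 4, both arrays of testis 2 and the first of testis 3, the MEHP signal was a surrogate. The mean was −1.18 ± 0.99 (SD, n = 3) and did not pass the test (limma adjusted p = 0.244, and 0.0721 without testis 2). The MEHP channel was well above background on 2 of 6 arrays. At 1 µM the ratios were −0.77 and −0.61, and 7.10% of tested probes had a mean as low or lower.

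Mbd3, a subunit of NuRD, was below 0 on all 6 arrays at 10 µM. The ratios were −0.46 and −0.84 in testis 1, −1.80 and −1.09 in testis 2, and −1.28 and −1.67 in testis 3. Its mean of −1.19 ± 0.47 (SD, n = 3) did not pass the test (limma adjusted p = 0.234, and 0.0599 without testis 2). Of all tested probes, 36.2% were below 0 in all 3 testes, as were Rbbp7, Rbbp4 and Mbd3. At 1 µM the ratios of Mbd3 were 0.12 and −0.26, on either side of 0. With dyes read as labelled, the mean at 10 µM was 0.01.

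Hdac1 and Hdac2, the enzymes of these complexes, had ratios above 0 in testes 1 and 3 and below 0 in testis 2. The ratios of Hdac1 were 0.35 and 0.43 in testis 1, −1.76 and −1.48 in testis 2, and 0.69 and 0.14 in testis 3. The mean, −0.27 ± 1.17 (SD, n = 3; limma adjusted p = 0.853), became 0.40 without testis 2 (adjusted p = 0.425). The sign of Hdac1 thus depended on that testis, in which the MEHP channel of the probe was not well above background. At 1 µM the ratios of Hdac1 were 0.70 and 0.24.

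The bright probe of Hdac2 was measured in both channels on both arrays of testes 1 and 3. Its ratios were 1.00 and 0.67 in testis 1, −3.56 and −0.68 in testis 2, and 1.03 and 0.71 in testis 3. The MEHP signal behind −3.56 was a surrogate, whereas both channels were well above background on the repeat array of testis 2. The mean was −0.14 ± 1.72 (SD, n = 3; limma adjusted p = 0.935), and 0.85 without testis 2 (adjusted p = 0.0973). At 1 µM its ratios were 0.62 and 0.05. The other Hdac2 probes were not well above background in either channel on any of the 6 arrays at 10 µM, so they give no fold there. At 1 µM the ratios of one were −0.89 and 0.73, on either side of 0, and the other was again not well above background.

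Sin3a, the scaffold of the Sin3 complex, was higher in testis 3 than in the other testes. Its ratios were −0.10 and 0.35 in testis 1, −1.58 and 0.00 in testis 2, and 1.95 and 1.69 in testis 3. On both arrays of testis 2 the MEHP signal was a surrogate. On the repeat array the vehicle signal was a surrogate too, so 0.00 is not a measured ratio. The mean of 0.39 ± 1.32 (SD, n = 3) did not pass the test (limma adjusted p = 0.777, and 0.124 without testis 2), and it was −0.33 without testis 3. At 1 µM both ratios were above 0, at 0.37 and 0.96. Mta1, a NuRD subunit that binds the deacetylases, was too dim to be tested at 10 µM, where each channel was well above background on 1 of 6 arrays. Its ratios were 0.73 and 0.28 in testis 1, −0.45 and −0.09 in testis 2, and −1.23 and 0.54 in testis 3. They lay on both sides of 0, as did those at 1 µM, 0.86 and −0.16.

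**Figure D2:**
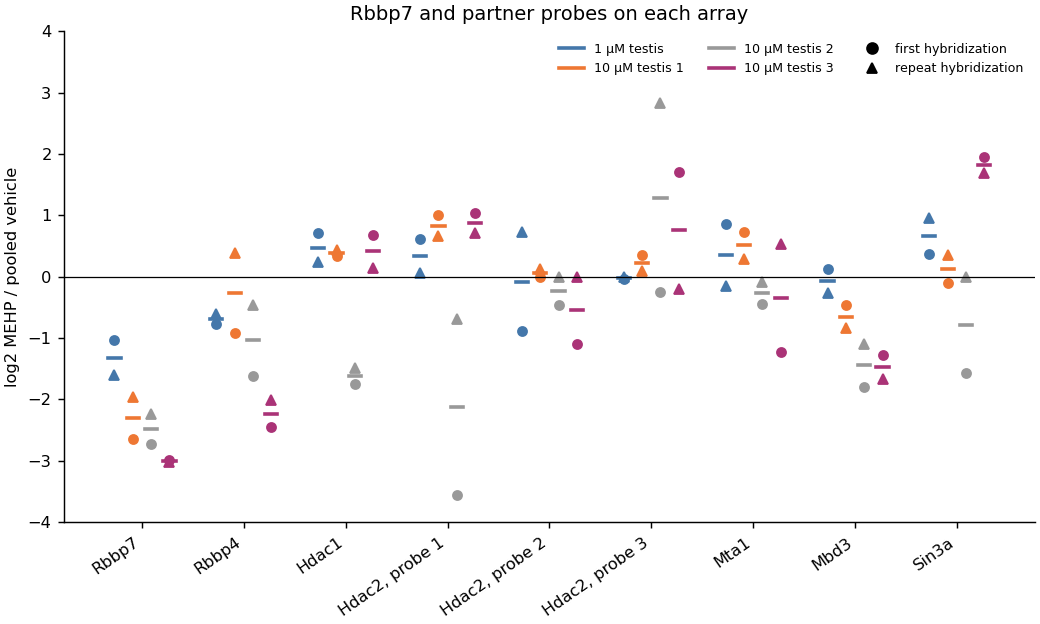
Log2 ratio of MEHP over pooled vehicle for the 9 probes of the 7 genes on each of the 8 arrays, with circles for first hybridizations, triangles for repeats and short bars for the mean of a testis. Rbbp7 is below 0 on every array, whereas Hdac1 and the first Hdac2 probe are above 0 in testes 1 and 3 and below 0 in testis 2.

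Of the 5 partner probes tested at 10 µM, 0 passed an adjusted p under 0.05 in limma, beside 1.87% of tested probes called lower and 0.373% called higher. In the same fit, Rbbp4 and Mbd3 were among the 1748 of 9913 tested probes with an unadjusted limma p under 0.05. At 10 µM, Rbbp4 was well above background on 4 arrays in vehicle and 2 in MEHP, and Mbd3 on 5 and 3. Rbbp4 thus entered the test mainly through the channel in which it was high, which limits its unadjusted p. Without testis 2, 10.0% of 9933 probes were called lower and 7.51% higher, and again 0 of the 5 partner probes. In testes 1 and 3 alone, Rbbp4 and Mbd3 were below 0 in both, as were 37.9% of tested probes. Hdac1, Hdac2 and Sin3a were above 0 in both, as were 36.0%. The difference of 10 µM minus 1 µM was −1.12 for Mbd3, −0.74 for Hdac1, −0.48 for Rbbp4, −0.47 for Hdac2 and −0.28 for Sin3a. Over all probes tested at 10 µM, the median ratio was −0.42 at 10 µM and 0.03 at 1 µM. With a single testis at 1 µM, assumed to vary like the others, 0 of 9876 probes (0%) passed the limma test of that difference and 24 had an unadjusted p under 0.05, so the test does not bear on whether the partners differed between doses.

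**Figure D3:**
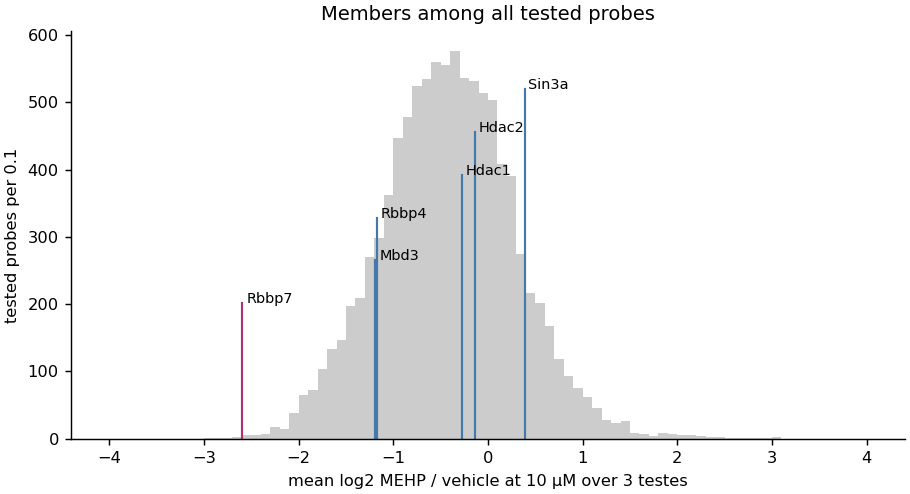
Number of tested probes by mean log2 ratio of MEHP over vehicle at 10 µM over 3 testes, with a line for each of the 6 member probes tested. Rbbp7 lies at −2.59 in the lower tail, and the 5 partner probes lie between −1.19 and 0.39.

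The genes of the complexes around Rbbp7 were examined by list, with Rbbp7 left out. Of 47 genes tested at 10 µM over 8 lists, 0 passed the test with all 3 testes in limma, and 37 (78.7%) had a mean below 0, as had 72.8% of all tested probes. Their median was −0.47, beside −0.42 for all tested probes. Without testis 2 the median was −0.12, and 2 genes (4.26%) were lower and 3 (6.38%) higher at an adjusted p under 0.05 in a fit of 2 testes, beside 10.0% and 7.51% of all probes in that fit.

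In NuRD, 8 of 14 genes were tested, with a median of −0.59, or 0.13 without testis 2. The lowest were Mbd3, Rbbp4 and Mta3, a relative of Mta1, at −0.89 (limma adjusted p = 0.406). Chd4, the remodeling ATPase of NuRD, had ratios of 1.56, −2.31 and 1.40 in testes 1 to 3. It stood at 1.48 without testis 2 (limma adjusted p = 0.0164) and at 0.21 with it (adjusted p = 0.893). In the Sin3 list, 10 of 15 genes were tested, with a median of −0.48, or −0.07 without testis 2. After Rbbp4, its lowest means were those of Ing2, a reader of methylated histone tails, at −1.14 (adjusted p = 0.270), and of Sap18, a Sin3-associated protein, at −1.05 (adjusted p = 0.316).

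In PRC2, which methylates histone H3, 6 of 10 genes were tested, with a median of −0.59, or −0.02 without testis 2. Eed, the subunit that binds the methylated tail, had ratios of −1.63, −0.66 and −2.11 in testes 1 to 3. Its mean was −1.47, and −1.87 without testis 2. Its MEHP channel was well above background on 0 of 6 arrays and its vehicle channel on 4, so it entered the test only through the channel in which it was high, and its call without testis 2 carries no weight. Aebp2, an accessory subunit, was at −0.64 (adjusted p = 0.582).

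Of the histone chaperones and related factors, 4 of 10 genes were tested, with a median of −0.56, or −0.20 without testis 2. Asf1a, which hands over histones H3 and H4, was at −0.76 (limma adjusted p = 0.493), and Chaf1b, a subunit of the chromatin assembly factor that also holds Rbbp4, at −0.35 (adjusted p = 0.800). In the CoREST list, 5 of 8 genes were tested, with a median of −0.15, or 0.40 without testis 2. Its histone demethylase Kdm1a was at −1.17 (adjusted p = 0.245) and the scaffold Rcor1 at −0.15 (adjusted p = 0.925).

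Among the other histone deacetylases, 5 of 9 were tested, with a median of 0.19, or 0.49 without testis 2. Hdac10 had ratios of 0.84, −0.04 and 2.32 in testes 1 to 3, with a mean of 1.04 and of 1.58 without testis 2. Its signal was well above background on 3 of 6 arrays in MEHP and on 1 in vehicle, so it entered the test through the channel in which it was high, and its call without testis 2 carries no weight. Hdac7 had ratios of 1.15, −0.58 and 1.22, with a mean of 0.59 (limma adjusted p = 0.615) and of 1.18 without testis 2 (adjusted p = 0.0333). Its signal was well above background on 2 arrays in MEHP and 1 in vehicle. It too entered the test mainly through the channel in which it was high, which limits its call without testis 2. Hdac3 was at −0.65 (adjusted p = 0.573).

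In the retinoblastoma and E2F list, whose pocket proteins are known to bind Rbbp4 and Rbbp7, 4 of 11 genes were tested, with a median of −0.52, or −0.19 without testis 2. Its largest means were those of Rbl2 at −0.96, Tfdp1 at −0.73 and E2f1 at −0.30, with limma adjusted p from 0.367 to 0.838. Of 14 proliferation genes, 12 were tested, with a median of −0.64, or −0.44 without testis 2. The lowest were the cyclin gene Ccnb1 at −1.34, the replication clamp Pcna at −1.27 and Rrm2, a subunit of ribonucleotide reductase, at −1.19, with adjusted p from 0.169 to 0.237. Mcm6, a subunit of the replicative helicase, was at −1.08, and at −1.51 without testis 2. It was well above background on 4 arrays in the vehicle and 2 in the MEHP channel. It thus entered the test mainly through the channel in which it was high, which limits its call without testis 2.

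**Figure D4:**
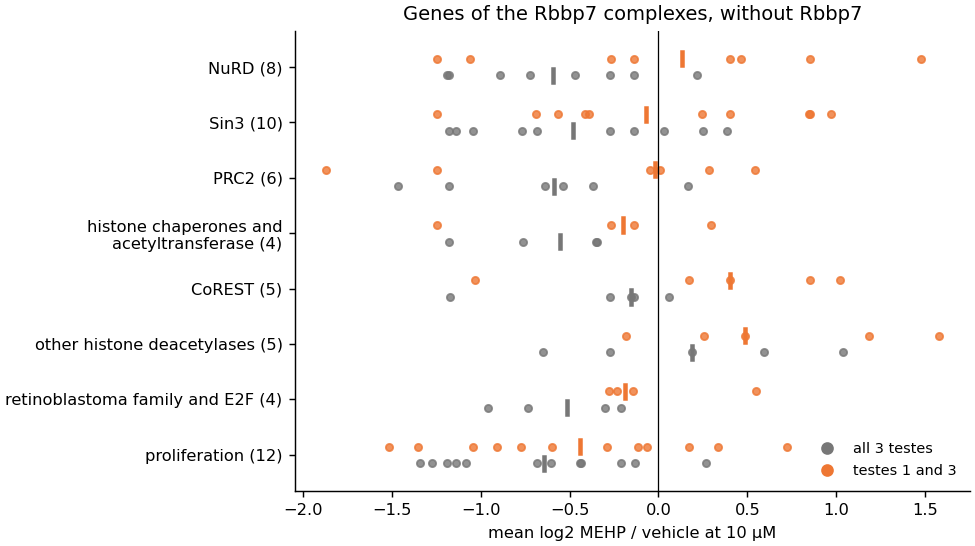
Mean log2 ratio of MEHP over vehicle at 10 µM for each tested gene of the 8 lists without Rbbp7, with all 3 testes (gray) and with testes 1 and 3 (orange), and bars for the medians. Numbers in parentheses count the genes, and leaving out testis 2 moves the median of each list upward, from −0.59 to 0.13 in NuRD.

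The probes whose ratios were nearest to those of Rbbp7 were found by the root mean square difference over the 8 arrays, among 6198 probes with a gene symbol tested at both doses. They were Prdx4, a peroxiredoxin, at 0.40, the ribosomal protein gene Rpl3 at 0.42, Aldh1a1, a retinaldehyde dehydrogenase, at 0.47, the ATP synthase subunit gene Atp5mc3 at 0.48 and the selenoprotein gene Selenof at 0.50. The median difference over all candidates was 2.20. Their means at 10 µM lay between −2.56 and −2.14, and at 1 µM Selenof was nearest to Rbbp7, at −1.33. In Aldh1a1 the 3 testes at 10 µM were at −2.58, −2.53 and −2.57, and in Prdx4 at −1.87, −2.47 and −3.09. The MEHP channel of these 5 probes was well above background on 1 to 3 of the 6 arrays at 10 µM, as it was on 2 for Rbbp7.

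**Figure D5:**
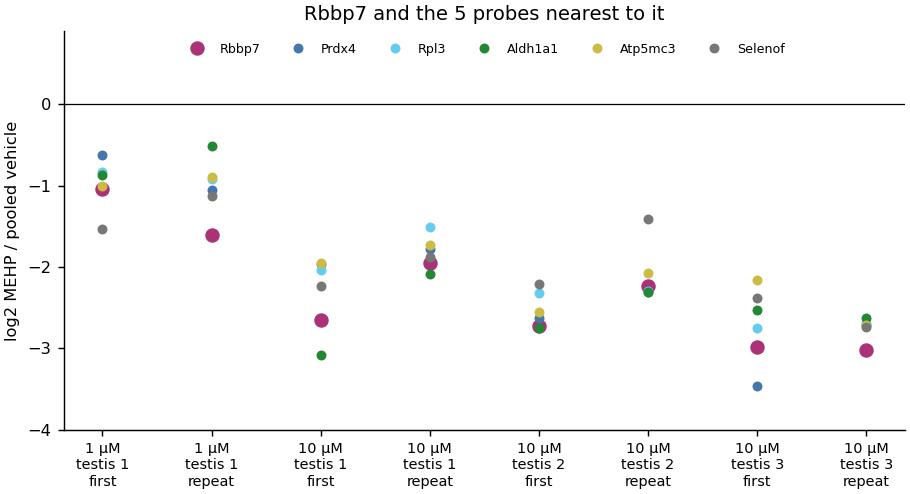
Log2 ratio of MEHP over pooled vehicle of Rbbp7 (large points) and of the 5 probes nearest to it on each of the 8 arrays. All 6 probes are below 0 on every array and lower at 10 µM than at 1 µM in the mean of each testis. The 5 were chosen for closeness to Rbbp7 on these same arrays, so their likeness to it is no separate result.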

How the data were processed

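RNA from 4 MEHP-treated fetal rat testes was compared with 1 vehicle pool on 8 arrays. The authors extracted images with Agilent Feature Extraction (9.1 in the submitters' processing notes), which subtracted background and normalized dyes within each array. The deposited files give, per spot, the log10 ratio of red over green and processed, mean and background intensity values of each dye, with deposited flags of other kinds for outliers and signal well above background. The authors' lists of fold changes and p-values per dose were not used in any fit or call.

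Ratios were converted to log2 and turned to MEHP over vehicle. Control spots and outlier spots were left out, spots of a probe were averaged, and the 2 hybridizations of a testis were averaged as 1 replicate. A probe was well above background when at least 0.5 of its kept spots were, and all 6 arrays had to give a value. This detail was settled after 6 versions of the filter had been counted, and was taken because an earlier processing of these data used it. For 10 µM, lmFit and eBayes (limma 3.58.1 in R 4.3.3) gave a two-sided test of the mean over testes against 0, and p-values were adjusted by Benjamini-Hochberg across every tested probe. This leaves out the spread of the controls. The fit was tested on simulated data. The files were loaded through the data.table package (version 1.17.8), and plots came from matplotlib 3.10.9 under Python 3.11.15.

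The members and lists were chosen with earlier results of these data known. Named genes were all member probes, the 3 genes of each list with the largest absolute mean and those past the threshold (with or without testis 2), and the 5 probes nearest to Rbbp7. In lists, a gene was represented by its brightest tested probe. Gene symbols started from those of the array. For the 10735 probes matched by accession to a RefSeq table of GRCr8, the symbol of that table was used. Some other symbols were updated through synonyms, and Rack1, for example, is named Gnb2l1 on the array. Arrays carry no counts, so their number limits the precision. Alternatives were other background and dye normalization, centring, filters, outlier spots kept, either hybridization alone, dyes as labelled, each testis left out, an intensity trend, the testis as a random block, the slide, and a 2-fold limit.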

Additional observations from a re-analysis of the deposited data

How the results depend on the processing

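Across the 20 alternatives at 10 µM, 0 of the partner probes tested passed the threshold, although the filter on both channels kept only Hdac1 and Hdac2 of them. The filter's spot rule and the slide as a fixed term were alternatives chosen after seeing the data, and the random slide block could not be fitted. Rbbp7 stayed below 0 at 10 µM in all 19 alternatives that kept it, between −2.78 and −0.19. The filter on both channels did not keep it. As Rbbp7 was chosen by its fall on these same arrays, its sign across the alternatives is no separate result. The adjusted p of Rbbp4 ranged from 0.0721 to 0.928 and that of Mbd3 from 0.0599 to 0.978. Cyp17a1 lost its call in 12 of 19 alternatives.

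The count of probes past the threshold, 222 in the text, depended on the processing. It was 0 with normexp and loess, with loess without background subtraction, without a filter on dim probes, with first hybridizations alone, with dyes as labelled, with the testis as a random block, and with the slide as a fixed term. It was 106 after median centring, 6 with the filter on both channels, and 27 with an intensity trend. A filter that took any spot as enough gave 142 probes where a missing hybridization was allowed and 154 where it was not, over all spots and over kept spots alike, and the filter of the text with a missing hybridization allowed gave 222. Leaving out 1 testis gave from 0 (testis 1 or testis 3) to 1741 probes (testis 2), and from 0 to 5 list genes. The share of calls that were lower was 83.3% in the text, 48.1% after centring, 51.3% with repeat hybridizations alone and 57.2% without testis 2. The cause was not tested.

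With normexp and loess, Rbbp7 was at −0.64 at 10 µM and −0.39 at 1 µM, 0 member probes were called at 1 µM, and the sign turned for Hdac1 (0.11), Hdac2 (0.48), Chaf1b (0.20), E2f1 (0.10) and Rcor1 (0.021). With loess without background subtraction, Rbbp7 was at −0.63 and −0.76, 1 member probe was called at 1 µM, and the sign turned for Hdac1 (0.11), Hdac2 (0.46), Aebp2 (0.021), Chaf1b (0.19), E2f1 (0.14) and Rcor1 (0.0061). After median centring, Rbbp7 was at −2.14 at 10 µM, and the sign turned for Hdac1 (0.18), Hdac2 (0.31), Chaf1b (0.10), E2f1 (0.15) and Rcor1 (0.30). With dyes as labelled, Rbbp7 was at −0.19 at 10 µM and 0.28 at 1 µM, 1 member probe was called at 1 µM, and the sign turned for Hdac1 (0.032), Mbd3 (0.010), Sin3a (−0.29), Asf1a (0.24), Chd4 (−0.079), Eed (0.10), Hdac10 (−0.048), Hdac7 (−0.19), Ing2 (0.066) and Sap18 (0.19). The first and the repeat hybridizations alone called 6 and 4 member probes at 1 µM, and a 2-fold limit called 1. The repeats alone put Hdac2 at 0.23 and Rcor1 at 0.83, and the slide term put Hdac2 at 0.11. Leaving out each testis in turn moved Hdac1 from −0.62 to 0.40, Hdac2 from −0.64 to 0.85, Chaf1b from −0.83 to 0.30, E2f1 from −0.78 to 0.55 and Rcor1 from −0.55 to 0.17, each above 0 without testis 2. It moved Sin3a from −0.33 (without testis 3) to 0.97, and Chd4 from −0.46 to 1.48 (without testis 2). No paired analysis was possible because the testes at 10 µM and the testis at 1 µM share fewer than 2 replicate numbers. Signal over background limits the size of every ratio whose MEHP channel was not well above it, Rbbp7 on 4 of 6 arrays included.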
